A study of Mus musculus with 12 samples.

Results

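The transcriptomes of responder CD4+ T cells from mice given anti-PD-L1 alone were set directly against those from mice given anti-Lag3 alone, to ask which genes differ between blocking one immune checkpoint and blocking the other. The comparison rests on 6 of the 12 samples in the series, 3 per antibody, and on the 15138 of 56691 mouse genes that had at least 30 reads summed over all 12 samples. All mice were Tg4 *Nr4a3*-Tocky *Il10*-GFP animals, described in the methods as typically 6 to 8 weeks old. They carry a transgenic T cell receptor (TCR) for a peptide of myelin basic protein (MBP), a Timer protein driven by *Nr4a3* and a GFP reporter of *Il10*. Every mouse was primed with [4Y]-MBP peptide at 4 mg/kg and received 0.5 mg of antibody 24 h later. A second peptide dose of 0.4 mg/kg followed after 30 min, and spleens were collected 12 h after that. The groups differed in the antibody: anti-PD-L1, anti-Lag3, an isotype pool as control, or both blocking antibodies together. Sorted cells were CD4+ and positive for both the blue and the red form of the Timer protein, so all groups were selected for recent *Nr4a3* activity. As a model the groups are limited by this selection, by a single transgenic TCR and by a single time point.

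PD-1 is an inhibitory receptor on activated T cells. Its ligand PD-L1 sits on antigen-presenting cells and on T cells, and PD-1 recruits the phosphatase SHP-2 to damp signals from the TCR and from CD28. Lag3 resembles CD4, binds MHC class II and restrains CD4+ T cells by a route that does not use SHP-2 docking motifs of the PD-1 kind. Anti-PD-L1 takes away the ligand of one receptor, whereas anti-Lag3 acts on the other receptor itself.

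Reads counted on genes were between 17489767 and 22151025 in the anti-PD-L1 samples and between 18711007 and 19476710 in the anti-Lag3 samples. The gene with the most reads, known here by its identifier ENSMUSG00000119584, held 18.4% to 20.3% of all counts with anti-PD-L1 and 16.0% to 17.7% with anti-Lag3. These ranges did not overlap, its log2 difference was 0.24 (95% interval 0.02 to 0.46), and it was called in some alternative fits but not in the one reported here. All 12 CD4 T cell markers examined were tested in the fit, and their summed level was 4633 to 5177 CPM (reads scaled to a common library size) with anti-PD-L1 and 4867 to 4941 with anti-Lag3. Library sizes were adjusted by the TMM method, and differences are log2 values of anti-PD-L1 minus anti-Lag3 from edgeR's quasi-likelihood fit, so that a positive value is a higher level with anti-PD-L1. A gene is called when its adjusted p (Benjamini-Hochberg over all genes tested) is under 0.05. Each group held 1 sample with reads from Y-linked genes and 2 with *Xist*, so sex was matched between both antibodies. In the isotype group 2 samples had Y-linked reads and 1 had *Xist* as the main signal, so comparisons with isotype were not balanced for sex. The groups were stained with CD4 antibodies of different dyes before the sort, and dye and treatment cannot be told apart.

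No gene was called between the antibodies (0 of 15138, 0%, quasi-likelihood test in edgeR, Benjamini-Hochberg adjusted). At an unadjusted p under 0.05 there were 710 genes (4.69%), of which 298 were higher and 412 lower with anti-PD-L1. The smallest adjusted p was 0.802 in the same test. DESeq2's Wald test called 10 genes, 1 higher and 9 lower with anti-PD-L1. They were *Stom*, 7 of the sparsely counted genes described further on, and *Sh2b2* and *Runx2os1*. Every anti-PD-L1 sample lay above every anti-Lag3 sample for 607 genes (4.01%) and below for 710 genes (4.69%). Among the 10448 genes whose mean count reached 30, the median absolute difference was 0.18 on the log2 scale and the median standard error was 0.27.

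The absence of calls does not show that both antibodies had the same effect on every gene. The 95% interval of the difference (unadjusted) lay within -1 to 1 for 6855 genes, or 45.3%, so that a 2-fold difference in either direction was outside the interval for these. It lay within the narrower limits of -0.5 to 0.5 for 3154 genes, or 20.8%. Of the better counted genes just described, the shares were 63.2% and 27.8%. For the remaining genes the interval reached past these limits.

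**Figure D1:**
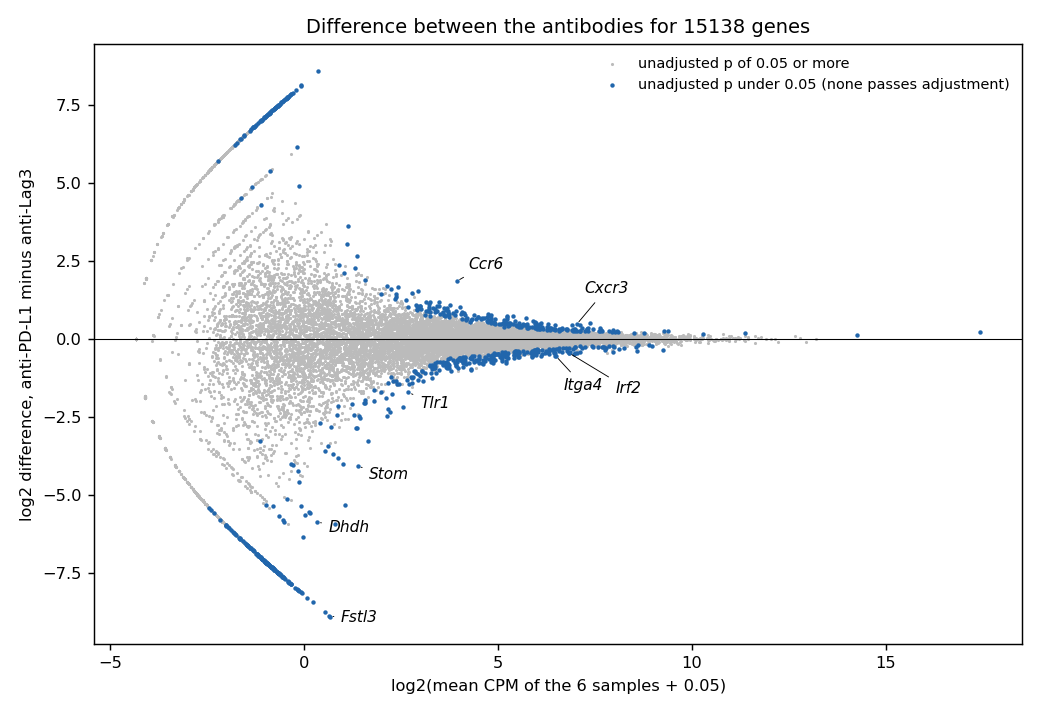
Each point is 1 of 15138 genes, with its mean level over the 6 samples on the x axis (log2 of CPM + 0.05) and the log2 difference between anti-PD-L1 and anti-Lag3 on the y axis. Blue points have an unadjusted p under 0.05 (710 genes). The curved arms at low levels are genes with no or few reads in one group, and *Ccr6* stands above the other genes of its level with a difference of 1.85.

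*Ccr6* had the smallest p in the direct comparison. It encodes the receptor for the chemokine CCL20 and is known from Th17 cells, some regulatory T cells and B cells. Its reading is shown here with the stretch of the genome just before its start, because *Ccr6* leads the ranking upward and *Itga4*, an integrin subunit from the same list of homing genes, is lower. Both stretches are 250 bases long and come from RefSeq (GRCm38.p6, plus strand), at chr17:8235793-8236042 and chr2:79255176-79255425. The capitals mark GGAAA on either strand (TTTCC on the strand shown), the core that NFAT factors bind, which also occurs inside motifs of other factors such as NF-kB and ETS proteins.
Ccr6: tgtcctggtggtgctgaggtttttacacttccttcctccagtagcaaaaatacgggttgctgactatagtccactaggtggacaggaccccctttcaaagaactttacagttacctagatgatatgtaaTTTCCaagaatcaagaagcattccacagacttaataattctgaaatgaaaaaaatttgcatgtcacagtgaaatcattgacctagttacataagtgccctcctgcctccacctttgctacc
Itga4: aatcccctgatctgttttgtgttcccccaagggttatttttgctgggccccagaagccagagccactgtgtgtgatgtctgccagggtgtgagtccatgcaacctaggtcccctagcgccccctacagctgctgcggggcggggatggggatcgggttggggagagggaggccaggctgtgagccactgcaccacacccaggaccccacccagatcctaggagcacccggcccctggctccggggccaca
The *Ccr6* window holds 1 match and the *Itga4* window 0. Of 32851 windows of this length in the RefSeq table, 18254 (55.6%) hold at least 1, so a match is common, and *Ccr6* has a further annotated start that is not shown.

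The level of *Ccr6* (ENSMUSG00000040899, chromosome 17 from 8236043 to 8257141 of GRCm38) was 18.5, 26.8 and 26.5 CPM in the anti-PD-L1 samples and 6.78, 9.999 and 3.10 CPM in the anti-Lag3 samples. The groups did not overlap, and the lowest anti-PD-L1 sample was above the highest anti-Lag3 sample. In reads, these were 319, 478 and 583 against 134, 202 and 59. Isotype samples had 1.01, 2.22 and 5.45 CPM, which lay below every anti-PD-L1 sample and overlapped with anti-Lag3. With both antibodies the level was 30.3, 39.1 and 37.8 CPM. The means were 24.0 ± 4.71 CPM for anti-PD-L1 and 6.63 ± 3.45 CPM for anti-Lag3 (SD, n = 3 each), a difference of 1.85 (standard error 0.42, 95% interval 0.99 to 2.71) or 3.61-fold.

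Against isotype *Ccr6* rose by 3.05 with anti-PD-L1 (quasi-likelihood test in edgeR, Benjamini-Hochberg adjusted p = 0.00425, standard error 0.45), the smallest p of that comparison. Its difference from isotype with anti-Lag3 was 1.19 (standard error 0.43, adjusted p = 0.805 in the same test). These comparisons share the isotype samples, and the direct difference of *Ccr6* was not called (adjusted p = 0.802, edgeR's quasi-likelihood test). Over the 24 alternatives that give an adjusted p for *Ccr6*, that p ran from 0.000191 to 0.959, and it passed under 2 of them: no filter on low counts (0.000191), and a fit of only these groups with the replicate number as a block (0.00878). When each sample was left out in turn, the difference of *Ccr6* stayed between 1.51 and 2.28. B cells also make *Ccr6*, and the summed level of 14 B cell markers overlapped between the groups, at 397 to 488 CPM with anti-PD-L1 and 409 to 494 with anti-Lag3. Most of this sum was *Ighm*, at 344 to 412 CPM and 359 to 405 CPM. Of the 14 markers 0 were called and 1, *Ms4a1*, did not overlap, beside 4.01% of all genes. It was higher with anti-PD-L1, at 5.23, 6.51 and 9.24 CPM against 3.64, 4.26 and 5.15 CPM. The part of such cells in the level of *Ccr6* was not tested. In bulk samples such as these, fewer cells that express a gene and less RNA per cell cannot be told apart.

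**Figure D2:**
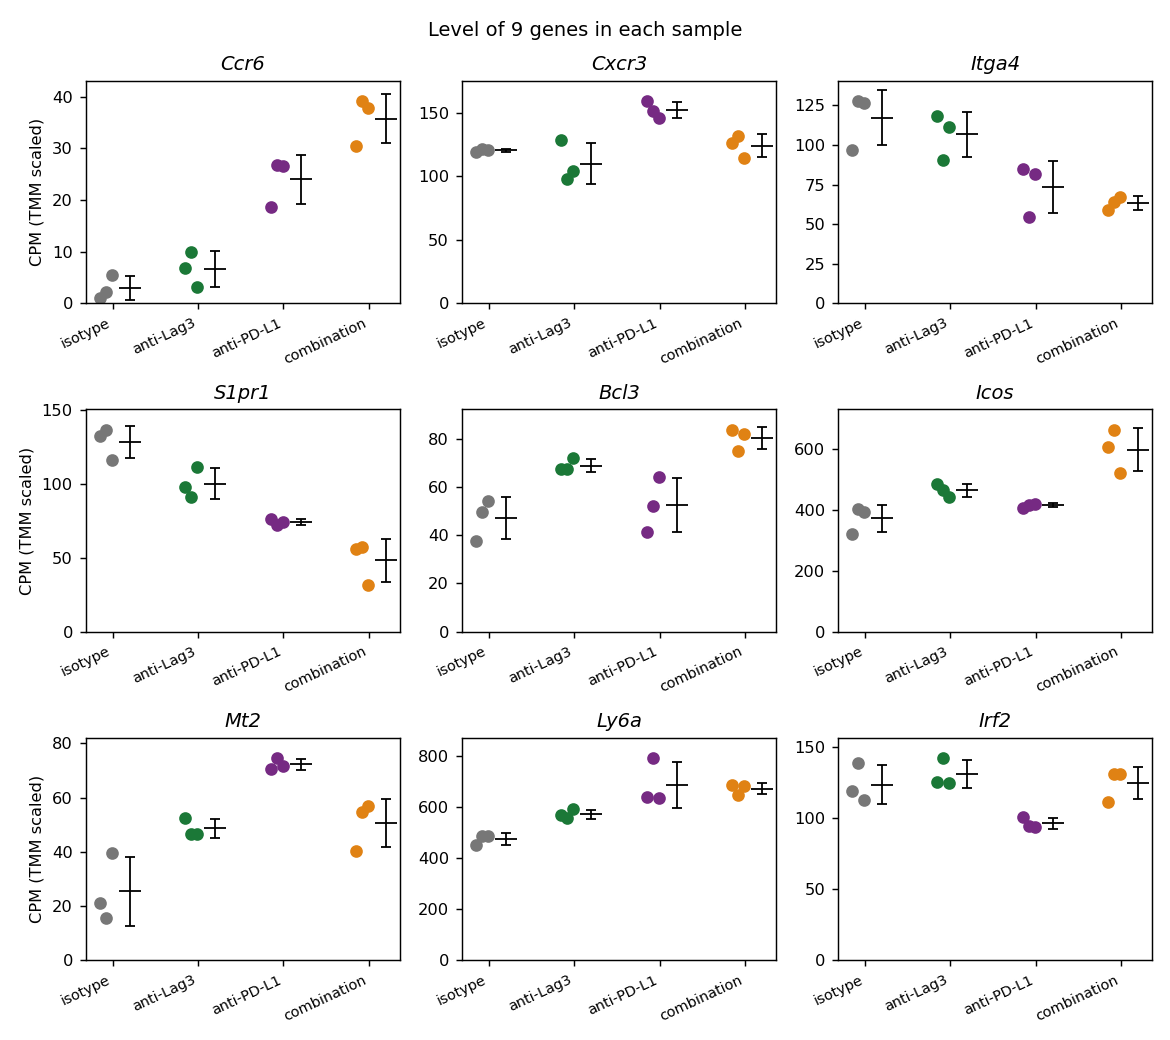
Levels of 9 genes in CPM (y axis, from 0) in each sample of the 4 groups (x axis). Dots are samples, and the black mark beside them is the mean with its SD (n = 3). Anti-PD-L1 and anti-Lag3 samples do not overlap for any of the 9, with *Ccr6*, *Cxcr3*, *Mt2* and *Ly6a* higher and *Itga4*, *S1pr1*, *Bcl3*, *Icos* and *Irf2* lower with anti-PD-L1. These 9 were picked from the named genes after their values were seen.

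Other genes of migration also had small unadjusted p. *Cxcr3*, the receptor for the interferon-induced chemokines CXCL9 and CXCL10 and a Th1-associated gene, is on chromosome X from 101731535 to 101734269. Its level was 159, 151 and 146 CPM with anti-PD-L1 and 128, 97.6 and 104 CPM with anti-Lag3. All anti-PD-L1 samples were above all anti-Lag3 samples, with a difference of 0.47 (standard error 0.12, 95% interval 0.21 to 0.72). In isotype samples *Cxcr3* was at 119, 122 and 120 CPM, which lay between those groups except for 1 anti-Lag3 sample. With both antibodies it was at 126, 132 and 114 CPM, below every anti-PD-L1 sample.

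*Itga4*, the alpha4 integrin subunit that T cells use to bind VCAM-1, lies on chromosome 2 from 79255426 to 79333123. It was at 84.8, 54.3 and 81.3 CPM with anti-PD-L1 and at 118, 90.6 and 112 CPM with anti-Lag3. The groups did not overlap, and the difference was -0.54 (standard error 0.16, 95% interval -0.87 to -0.21). Isotype samples had 97.1, 128 and 127 CPM, which overlapped with anti-Lag3 and lay above every anti-PD-L1 sample. With both antibodies the level was 58.7, 64.0 and 67.1 CPM, which overlapped with anti-PD-L1. An exon of *Itga4* overlaps *Cerkl* on the opposite strand, which had 411 reads in the 12 samples against 20745 for *Itga4*.

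*S1pr1*, the sphingosine-1-phosphate receptor that lets T cells leave lymphoid tissue, was at 76.1, 72.5 and 74.2 CPM with anti-PD-L1 and at 97.9, 91.0 and 111 CPM with anti-Lag3. Every anti-PD-L1 sample was lower, with a difference of -0.43 (standard error 0.17, 95% interval -0.77 to -0.09). With 133, 137 and 116 CPM, the isotype samples were above both groups. *Klf2*, a transcription factor that drives *S1pr1*, had a difference of -0.16 (standard error 0.10), and its samples did not overlap either. *Klf2* was named after its values were seen.

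Over the list of 24 chemokine receptors, integrins and egress genes, 23 were tested and 0 were called. At an unadjusted p under 0.05 there were 5 of 23 (*Ccr6* and *Cxcr3* higher, *S1pr1*, *Itga4* and *Ccr7* lower), beside 4.69% of all genes. The list was chosen with earlier results of these data known. It includes genes that the study names from this series, so this share is a description and not a test. The median of the list was -0.15, with 9 members above 0 and 14 below, where the median of all genes was 0.00 with 7331 above and 7557 below. *Ccr7*, the receptor that guides T cells to lymphoid tissue, had a difference of -0.23 (standard error 0.11) and its samples overlapped. *Cxcr4* and *Itga6*, whose products hold cells to stroma and to laminin, had differences of -0.17 and -0.19 with intervals that included 0. *Cxcr6* had the lowest value of the list, -1.07, at under 8 CPM in all 6 samples and with an interval from -2.65 to 0.50.

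The remaining genes with the 20 smallest p fell into a group that was well counted and a group that was nearly absent from one treatment. In 7 of the 20 the anti-PD-L1 samples all had 3 reads or fewer, and in 1 the anti-Lag3 samples did. In the other 12 at least 1 sample of each group had more, and of these 6 were higher and 6 lower with anti-PD-L1. All 20 had non-overlapping groups, which is how such a ranking selects, and none was called.

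Among the well counted genes, *Sh3glb2*, which encodes an endophilin-like membrane protein, was at 56.0, 51.7 and 48.5 CPM with anti-PD-L1 and at 32.0, 29.0 and 32.5 CPM with anti-Lag3. Each anti-PD-L1 sample was above all isotype samples (44.4, 45.2 and 37.0 CPM), and each anti-Lag3 sample was below them. The direct difference of *Sh3glb2* was 0.74 (standard error 0.18, 95% interval 0.37 to 1.11). *Stub1*, the ubiquitin ligase CHIP that works with heat shock chaperones, was at 93.1, 92.5 and 87.9 CPM against 74.2, 64.6 and 55.4 CPM. Its anti-Lag3 samples were the low ones, since isotype samples were at 83.2, 89.4 and 80.1 CPM. The difference of *Stub1* was 0.49 (standard error 0.14). *Opa3*, a mitochondrial protein, and the unnamed transcript 4930453N24Rik were also higher in each anti-PD-L1 sample, by 0.71 and 0.68. With both antibodies, every sample was below every anti-PD-L1 sample for *Sh3glb2*, *Stub1* and 4930453N24Rik, while *Opa3* overlapped.

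Lower with anti-PD-L1 were *Irf2*, *Tle3*, *Cyth1*, *Kctd5*, *Tlr1* and, at low counts, *Stom*. *Irf2*, a transcription factor that restrains interferon responses, was at 101, 94.8 and 93.8 CPM with anti-PD-L1 and at 126, 142 and 125 CPM with anti-Lag3. Isotype samples (119, 139 and 113 CPM) were all above the anti-PD-L1 samples, and the difference between the antibodies was -0.44 (standard error 0.12, 95% interval -0.70 to -0.18). *Tle3*, a Groucho-type co-repressor, differed by -0.53, *Cyth1*, an activator of ARF GTPases that bears on integrin adhesion, by -0.78, and *Kctd5*, a ubiquitin ligase adaptor, by -0.91. With both antibodies, every sample was above every anti-PD-L1 sample for *Irf2*, *Tle3*, *Kctd5*, *Tlr1* and *Stom*, while *Cyth1* overlapped.

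*Tlr1*, a partner of TLR2 in sensing bacterial lipopeptides, was at 1.74, 3.59 and 3.64 CPM with anti-PD-L1 and at 6.17, 13.7 and 9.61 CPM with anti-Lag3. The groups did not overlap, the difference was -1.71 (standard error 0.45, 95% interval -2.64 to -0.79), and the isotype samples, at 13.4, 14.9 and 16.7 CPM, were above every anti-PD-L1 sample and overlapped with anti-Lag3. Myeloid cells express *Tlr1* too. The summed level of 12 myeloid markers was 26.4 to 34.6 CPM with anti-PD-L1 and 11.5 to 20.4 with anti-Lag3. Of these markers 11 were tested and 0 called, 2 of the 11 were higher in every anti-PD-L1 sample than in every anti-Lag3 sample, beside 4.01% of all genes, and *Cd14* was at 0 in all 6 samples. The part of such cells in the level of *Tlr1* was not tested.

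The nearly absent genes were *Dhdh*, C030037D09Rik, *Fstl3*, Gm42611, *Ociad2*, *Fam213b* and *Zfp273* with anti-PD-L1, and the gene ENSMUSG00000120027 with anti-Lag3. *Fstl3*, a secreted antagonist of activin, had 0 reads in each anti-PD-L1 sample and 102, 23 and 55 reads in the anti-Lag3 samples. Counted against 3 reads in each library, *Fstl3* was at least 19.2-fold lower with anti-PD-L1. For *Ociad2* the reads were 0 in each anti-PD-L1 sample and 73, 58 and 51 with anti-Lag3, at least 19.3-fold lower on the same basis. The other bounds in that direction ran from at least 7.48-fold for *Zfp273* to at least 17.5-fold for Gm42611. *Dhdh* had 0, 1 and 1 reads against 84, 34 and 24, and ENSMUSG00000120027 had 74, 37 and 24 reads against 0 in each anti-Lag3 sample, at least 16.3-fold higher with anti-PD-L1. With both antibodies, which include anti-PD-L1, the reads were 45, 24 and 95 for *Dhdh* and 57, 45 and 84 for C030037D09Rik. They were 6, 0 and 60 for *Fstl3*, 70, 45 and 0 for Gm42611, and 8, 54 and 38 for *Ociad2*. For *Fam213b* they were 52, 10 and 20, for *Zfp273* 26, 22 and 74, and for ENSMUSG00000120027 17, 44 and 0. The low counts were thus not shared by all samples given anti-PD-L1. Some bounds rest on 1 library. They became at least 10.4-fold for ENSMUSG00000120027 without anti-PD-L1 replicate 1, at least 12.6-fold for *Fstl3* without anti-Lag3 replicate 1, and at least 9.17-fold for *Fam213b* and at least 2.25-fold for C030037D09Rik without anti-Lag3 replicate 2.

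*Stom*, which encodes the membrane protein stomatin and is abundant in red cells, was between these groups with 9, 0 and 7 reads against 114, 80 and 92. Erythroid markers summed to 172 to 218.5 CPM with anti-PD-L1 and to 218 to 291 with anti-Lag3, and overlapped by a narrow margin. Of these 7 markers 0 were called and 1, *Hbb-bs*, did not overlap, beside 4.69% of all genes in that direction. It was at 108, 108 and 109 CPM with anti-PD-L1 and at 135, 131 and 174 CPM with anti-Lag3. The part of red cells in the level of *Stom* was not tested. Libraries were made from 5 ng of RNA with 18 cycles of amplification and no molecular identifiers, so reads are not independent molecules and the bounds cover counting error only.

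For the transcripts of the blocked molecules themselves, the intervals of the direct difference included 0. *Pdcd1* (PD-1) was at 14.98, 27.4 and 30.1 CPM with anti-PD-L1 and at 28.6, 22.7 and 24.1 CPM with anti-Lag3, a difference of -0.06 with a 95% interval from -0.58 to 0.47, and of 0.19 without anti-PD-L1 replicate 1. *Lag3* was at 0.987, 6.56 and 6.96 CPM against 6.73, 6.44 and 7.301 CPM. Its low sample was 1 anti-PD-L1 sample, and the interval of the difference, -1.62 to 0.64, was wide. *Cd274*, which encodes PD-L1, was at 3.37, 2.92 and 8.01 CPM with anti-PD-L1 and at 11.9, 9.16 and 5.57 CPM with anti-Lag3, a difference of -0.89 (95% interval -1.91 to 0.12) with overlapping groups. Isotype samples of *Cd274* had 17.8, 5.57 and 18.0 CPM. Its difference from isotype was -1.53 with anti-PD-L1 (95% interval -2.56 to -0.50) and -0.63 with anti-Lag3 (95% interval -1.64 to 0.37), and neither was called. *Pdcd1lg2*, the gene of PD-L2, differed by -0.43 (95% interval -1.26 to 0.41).

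Of 14 genes of both pathways, 13 were tested and 0 called. *Ptpn6*, the gene of the phosphatase SHP-1, was the 1 of 13 with an unadjusted p under 0.05, beside 4.69% of all genes. It was at 310, 292 and 293 CPM with anti-PD-L1 and at 257, 255 and 251 CPM with anti-Lag3. Its groups did not overlap and its difference was 0.23 (standard error 0.10). *Adam10*, the protease that sheds Lag3 from the surface, differed by -0.31 (standard error 0.16), with each anti-PD-L1 sample lower than each anti-Lag3 sample. Both were named after their values were seen. Each was the 1 of 13 without overlap in its direction, beside 4.01% of all genes higher and 4.69% lower. The median of the 13 was 0.02.

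The genes called for one antibody against isotype show how the other antibody stood. With anti-PD-L1, 5 genes were called (0.033% of 15138), all higher: *Ccr6*, *Mt2*, *Ly6a*, *Ppa1* and *Mt1*. With anti-Lag3, 0 were called (0%, edgeR's quasi-likelihood test), with 788 at an unadjusted p under 0.05 against 1187 for anti-PD-L1, and DESeq2's Wald test called 9 and 56. Of the 56 for anti-PD-L1, 31 were higher and 25 lower. For this comparison edgeR called 21 higher and 19 lower without a filter on low counts, and 13 and 10 with a replicate block. Calls in 1 direction thus depended on the fit. DESeq2's test against 0.2 with s values under 0.005 called 4 genes for anti-PD-L1 and 0 for anti-Lag3. The 4 were *Ccr6* and *Mt2*, higher, and *Dhdh* and *Tlr1*, lower. Leaving out 1 sample changed the count of 5 to 1 without isotype replicate 1, to 0 without isotype replicate 2 and to 8 without isotype replicate 3. It became 2 without anti-PD-L1 replicate 2 and 10 without anti-PD-L1 replicate 3.

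*Mt2*, a metallothionein that binds zinc and copper, is on chromosome 8 from 94172664 to 94173568. It was at 70.6, 74.5 and 71.8 CPM with anti-PD-L1, at 52.6, 46.7 and 46.6 CPM with anti-Lag3 and at 21.1, 15.5 and 39.6 CPM with isotype. None of these 3 groups overlapped with another. The direct difference of *Mt2* was 0.57 (standard error 0.23, 95% interval 0.10 to 1.04), against isotype it was 1.51 with anti-PD-L1 (called) and 0.93 with anti-Lag3 (adjusted p = 0.554, edgeR's quasi-likelihood test). Its neighbour *Mt1* was at 87.4, 107 and 80.4 CPM against 85.9, 68.7 and 72.9 CPM with overlap, a direct difference of 0.27 (95% interval -0.15 to 0.70). *Mt1* and *Mt2* are close paralogs.

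*Ly6a*, which encodes Sca-1 and is induced by interferon and by activation, was at 638, 792 and 634 CPM with anti-PD-L1, at 570, 556 and 591 CPM with anti-Lag3 and at 450, 488 and 487 CPM with isotype. These groups did not overlap. Its direct difference was 0.27 (standard error 0.09, 95% interval 0.08 to 0.45). *Ppa1*, a pyrophosphatase, was at 277, 237 and 229 CPM against 216, 219 and 232 CPM, with 1 anti-Lag3 sample inside the anti-PD-L1 range and a direct difference of 0.16 (95% interval -0.05 to 0.37). All isotype samples of *Ppa1*, at 160, 166 and 173 CPM, were below both groups.

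**Figure D3:**
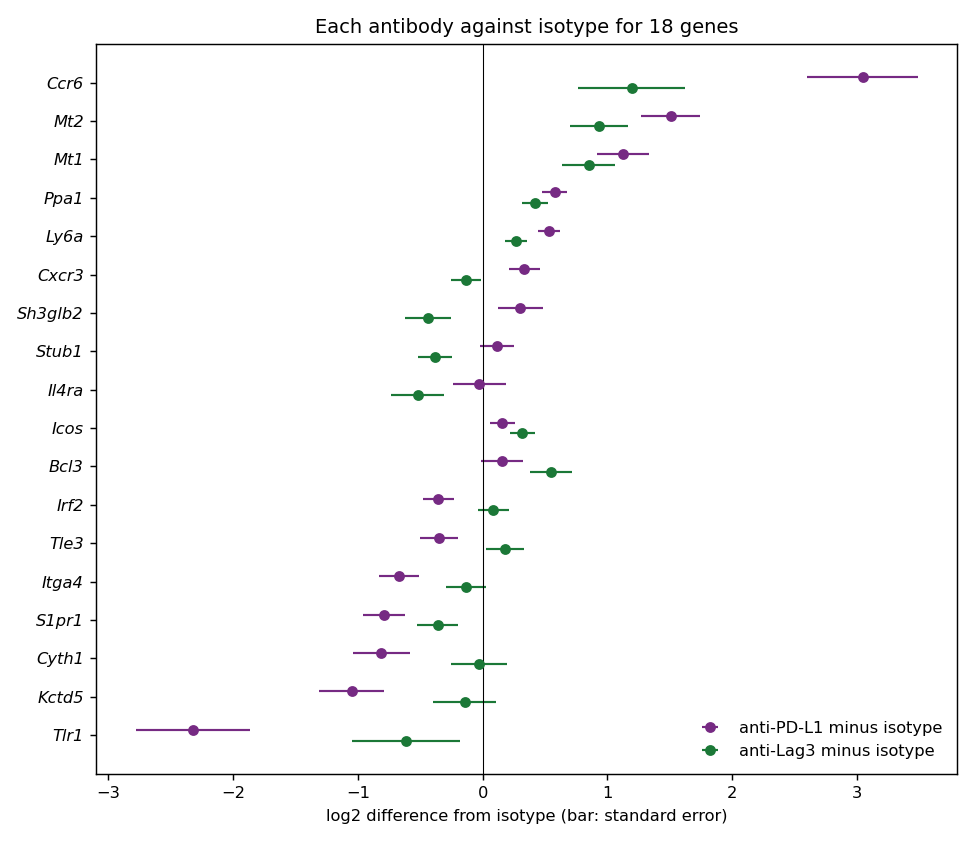
Log2 difference from isotype (x axis) of 18 genes (y axis) under anti-PD-L1 (purple) or anti-Lag3 (green), and bars of 1 standard error. Both colours use the same 3 isotype samples, and the genes were chosen from the named ones after their values were seen. *Ccr6*, *Mt2*, *Mt1*, *Ppa1* and *Ly6a* are above 0 in both colours, while *Tlr1* lies at -2.32 for anti-PD-L1 and -0.61 for anti-Lag3.

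The study names 34 genes in its sequencing results that are given here, some of them chosen there on samples of this series. None of the 34 was called between the antibodies, 14 were above 0 and 20 below, and the median absolute difference was 0.18. For 29 of them the 95% interval lay within -1 to 1, and for 13 within -0.5 to 0.5. The 5 with wider intervals were *Ccr6*, *Il21*, *Foxp3*, *Il10* and *Nr4a3*. An unadjusted p under 0.05 was found for 6 of the 34, beside 4.69% of all genes: *Ccr6*, *Cxcr3*, *Itga4* and *S1pr1*, described above, and *Bcl3* and *Il4ra*.

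*Bcl3*, an atypical inhibitor of NF-kB that acts in the nucleus with p50 and p52, was at 41.5, 52.0 and 64.1 CPM with anti-PD-L1 and at 67.4, 67.4 and 72.2 CPM with anti-Lag3. Each anti-Lag3 sample was above each anti-PD-L1 and each isotype sample (37.6, 49.8 and 54.3 CPM). The direct difference of *Bcl3* was -0.39 (standard error 0.17, 95% interval -0.74 to -0.05), against isotype it was 0.15 for anti-PD-L1 and 0.55 for anti-Lag3, and neither was called. *Il4ra*, a receptor chain for IL-4 and IL-13, was at 82.6, 52.3 and 55.5 CPM against 39.6, 46.6 and 48.8 CPM. The gap between the groups was narrow, and the difference was 0.49 (95% interval 0.06 to 0.93).

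*Icos*, a costimulatory receptor that marks strong TCR signalling, was at 407, 417 and 419 CPM with anti-PD-L1 and at 484, 466 and 441 CPM with anti-Lag3. The groups did not overlap, with the higher level on anti-Lag3, and the difference was -0.16 (standard error 0.10, 95% interval -0.37 to 0.04). *Tnfrsf4* (OX40), at 106, 75.3 and 93.7 CPM against 101, 81.6 and 103 CPM, overlapped fully and differed by -0.05 (95% interval -0.36 to 0.25). The groups also overlapped for *Maf*, a factor for IL-10 and IL-21, at -0.06 (95% interval -0.34 to 0.21), and for *Cd4* at 0.03 (95% interval -0.21 to 0.26).

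*Tnfrsf9* (4-1BB) and *Irf8* had differences of 0.30 and 0.17 with intervals from -0.08 to 0.67 and from -0.15 to 0.49. *Il21*, a helper cytokine for B cells, was at 10.05, 17.0 and 26.9 CPM with anti-PD-L1 and at 20.8, 13.4 and 9.35 CPM with anti-Lag3. The spread within each group exceeded the gap between them, and the interval of *Il21* ran from -0.51 to 1.13. *Il10* was at 6.04, 13.3 and 11.01 CPM against 8.55, 21.5 and 12.7 CPM, a difference of -0.49 (95% interval -1.42 to 0.44).

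Among lineage genes, *Gata3* (Th2) differed by 0.13, *Tbx21* (Th1) by -0.22, *Bcl6* (follicular helper cells) by 0.07 and *Rora* (Th17) by 0.14, each with an interval that included 0. *Foxp3*, the factor of regulatory T cells, was at under 4 CPM in all 6 samples, and its interval of -2.06 to 1.57 leaves its difference undetermined. Its exons also overlap *Ccdc22* on the opposite strand, which had 2328 reads in the 12 samples against 609 for *Foxp3*. *Ahr*, a ligand-activated factor, was the lowest of 22 helper lineage factors at 0.813, 2.52 and 1.96 CPM against 5.82, 5.40 and 5.09 CPM. Its groups did not overlap, and its interval of -3.29 to 0.05 included 0, and it overlaps Gm48236 on the opposite strand (454 reads against 884 for *Ahr*).

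**Figure D4:**
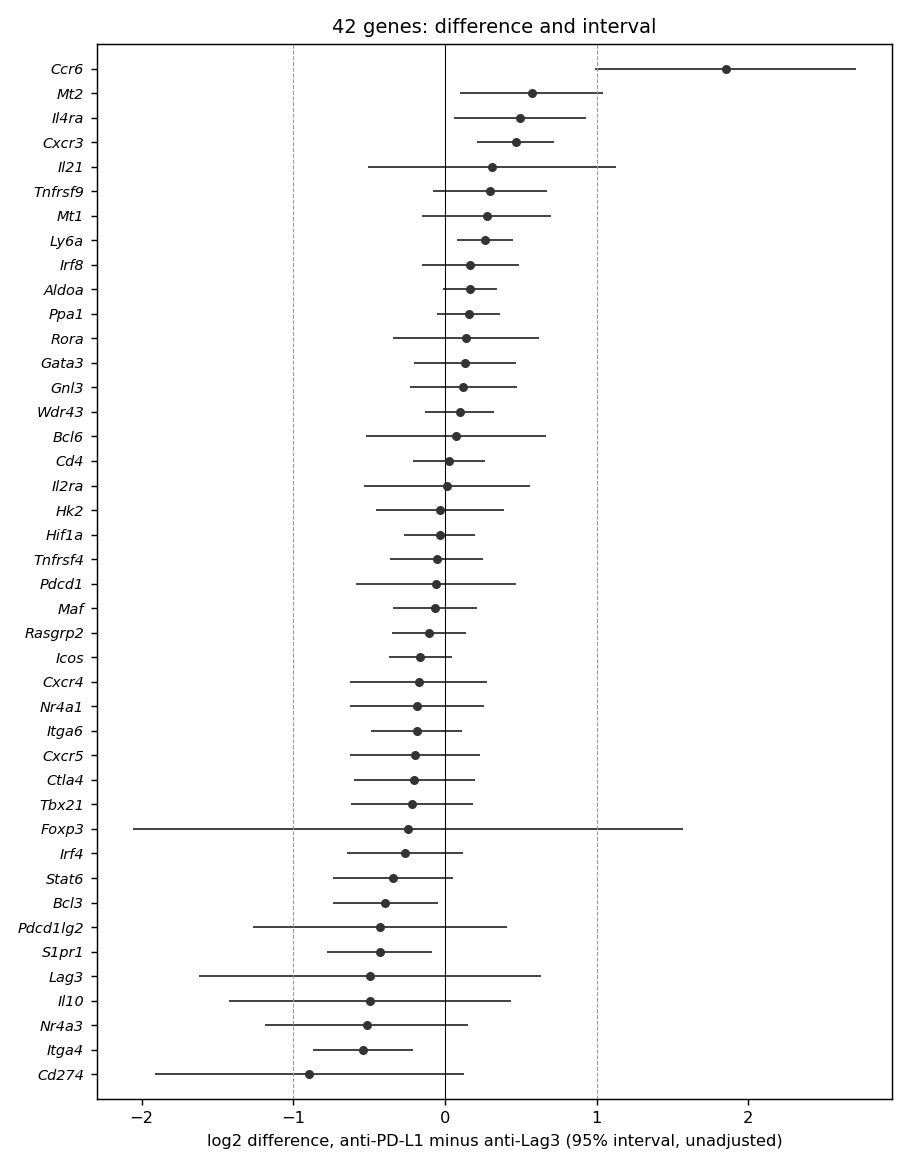
Log2 difference between anti-PD-L1 and anti-Lag3 with its unadjusted 95% interval (x axis) for 42 genes (y axis), which are the 34 genes named by the study, 4 genes of the blocked receptors and ligands, and 4 others called against isotype. Dashed lines mark -1 and 1. The interval of *Ccr6*, 0.99 to 2.71, lies farthest from 0, and those of *Foxp3*, *Cd274* and *Lag3* are among the widest.

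In all 24 gene lists 0 members were called, and list medians of the difference ran from -0.25 for cytokine receptors to 0.12 for ribosome biogenesis, beside 0.00 over all genes. The lists are described by counts without a test of the list. Members named from here on are the extremes of their list, are named by the study or had an unadjusted p under 0.05, and the last of these were chosen after their values were seen.

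Ribosome biogenesis factors, which build ribosomal subunits in the nucleolus, had 29 of 33 members above 0 and a median of 0.12, beside 7331 of 15138 genes above 0 in all. An unadjusted p under 0.05 was found for 2 of the 33, beside 4.69% of all genes, namely *Dkc1* at 0.21 and *Grwd1* at 0.40. The range over the list was from -0.23 (*Utp4*) to 0.44 (*Rrp9*), and *Gnl3* and *Wdr43* were at 0.12 and 0.10. An exon of *Gnl3* (17296 reads in the 12 samples) overlaps *Pbrm1* on the opposite strand, which had 64897, and one of *Rrp9* (9132) overlaps *Parp3* (4478) in the same way. The 36 cytosolic ribosomal proteins were spread evenly around a median of -0.01, with 16 above 0 and 20 below.

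Early TCR response factors, the immediate genes induced through NFAT, ERK and calcium, had 20 of 27 members below 0 and a median of -0.20. *Fosb* had an unadjusted p under 0.05 with a difference of -0.69 (standard error 0.31) and overlapping groups. *Nr4a1* was at 73.2, 138 and 178 CPM with anti-PD-L1 and at 113, 128 and 202 CPM with anti-Lag3. *Nr4a3*, on which the cells were sorted through its reporter, was at 8.48, 28.3 and 23.7 CPM against 26.8, 31.8 and 28.0 CPM. In both genes anti-PD-L1 replicate 1 was the lowest of the 6 samples, and the intervals, -0.63 to 0.26 and -1.19 to 0.15, included 0. Dissociation and stress genes, which overlap with this list, summed to 716 to 963 CPM with anti-PD-L1 and to 797 to 1050 with anti-Lag3, and their part in the list's median was not tested.

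NF-kB subunits and inhibitors had 12 of 15 members below 0 and a median of -0.19. *Rel* and *Nfkb1*, subunits c-Rel and p105/p50, differed by -0.51 (standard error 0.24) and -0.36 (standard error 0.17), and their groups overlapped. Of 22 genes of the TCR complex and proximal signalling, all 22 had an interval within -1 to 1 and the median was -0.05. *Plcg1*, the phospholipase that releases calcium after TCR engagement, was at 91.7, 92.0 and 95.9 CPM against 116, 110 and 113 CPM. Its groups did not overlap, and it differed by -0.28 (standard error 0.13).

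Cytokine receptors had 15 of 20 members below 0, but only 11 of the 20 had an interval within -1 to 1. *Il12rb2*, a chain of the IL-12 receptor, was the highest at 0.77 (95% interval 0.02 to 1.52), and it overlaps *Serbp1* on the opposite strand, which had 489495 reads in the 12 samples against 2684. Since the strand setting of the counting is not given in the sources used here, such pairs cannot be told apart. *Il21*, *Plcg1*, *Stub1*, *Gins2*, *Maf*, *Fstl3* and *Fam213b* also overlap a gene on the opposite strand, each with fewer reads than the gene named. Quiescence factors had 11 of 16 members below 0, with *Txnip* and *Btg1* at -0.52 and -0.51, whereas *Foxo1*, which sustains naive and resting T cells, was at 216, 215 and 239 CPM against 170, 204 and 190 CPM. The groups of *Foxo1* did not overlap, and its difference was 0.25 (standard error 0.11).

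Metabolic lists lay near 0. Glycolysis and lactate export had a median of 0.05, with 13 of 22 above 0. *Gpi1*, the isomerase after hexokinase, was at 279, 298 and 246 CPM with anti-PD-L1 and at 221, 235 and 219 CPM with anti-Lag3, without overlap and with a difference of 0.29 (standard error 0.11). *Aldoa* differed by 0.17 (95% interval -0.01 to 0.34), also without overlap, while *Hk2* and *Hif1a* were at -0.03 each. Oxidative phosphorylation and the proteasome had medians of 0.05 and 0.02, and all of their 24 members each had an interval within -1 to 1.

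Cell cycle genes were equally close to 0 as lists. DNA replication had a median of 0.02 and mitosis one of 0.01, and all 25 and 23 members had an interval within -1 to 1. Above 0 were 13 of 25 replication genes and 15 of 23 mitosis genes. An unadjusted p under 0.05 was found for 2 of the 25, higher, and 3 of the 23, lower, beside 4.69% of all genes. *Gins2*, part of the replicative helicase, was at 88.4, 81.4 and 92.2 CPM against 55.2, 74.3 and 72.2 CPM, a difference of 0.38 (standard error 0.16) without overlap. *Aurkb*, the mitotic kinase Aurora B, was at 62.2, 67.7 and 96.4 CPM against 107, 92.9 and 109 CPM, a difference of -0.45 (standard error 0.15) with overlap. *Kif11*, a spindle motor, differed by -0.32 (standard error 0.12) without overlap.

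Interferon-response lists had medians close to 0 between the antibodies, -0.02 for 31 antiviral genes and -0.08 for 15 tested interferon-inducible GTPases. Their medians against isotype were 0.36 and 0.49 with anti-PD-L1 and 0.24 and 0.69 with anti-Lag3, values that share the isotype samples. Only 16 of the 31 and 8 of the 15 had a direct interval within -1 to 1, so single genes of these lists were measured with little precision. All 13 antigen presentation genes had such an interval, with a median of 0.00.

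**Figure D5:**
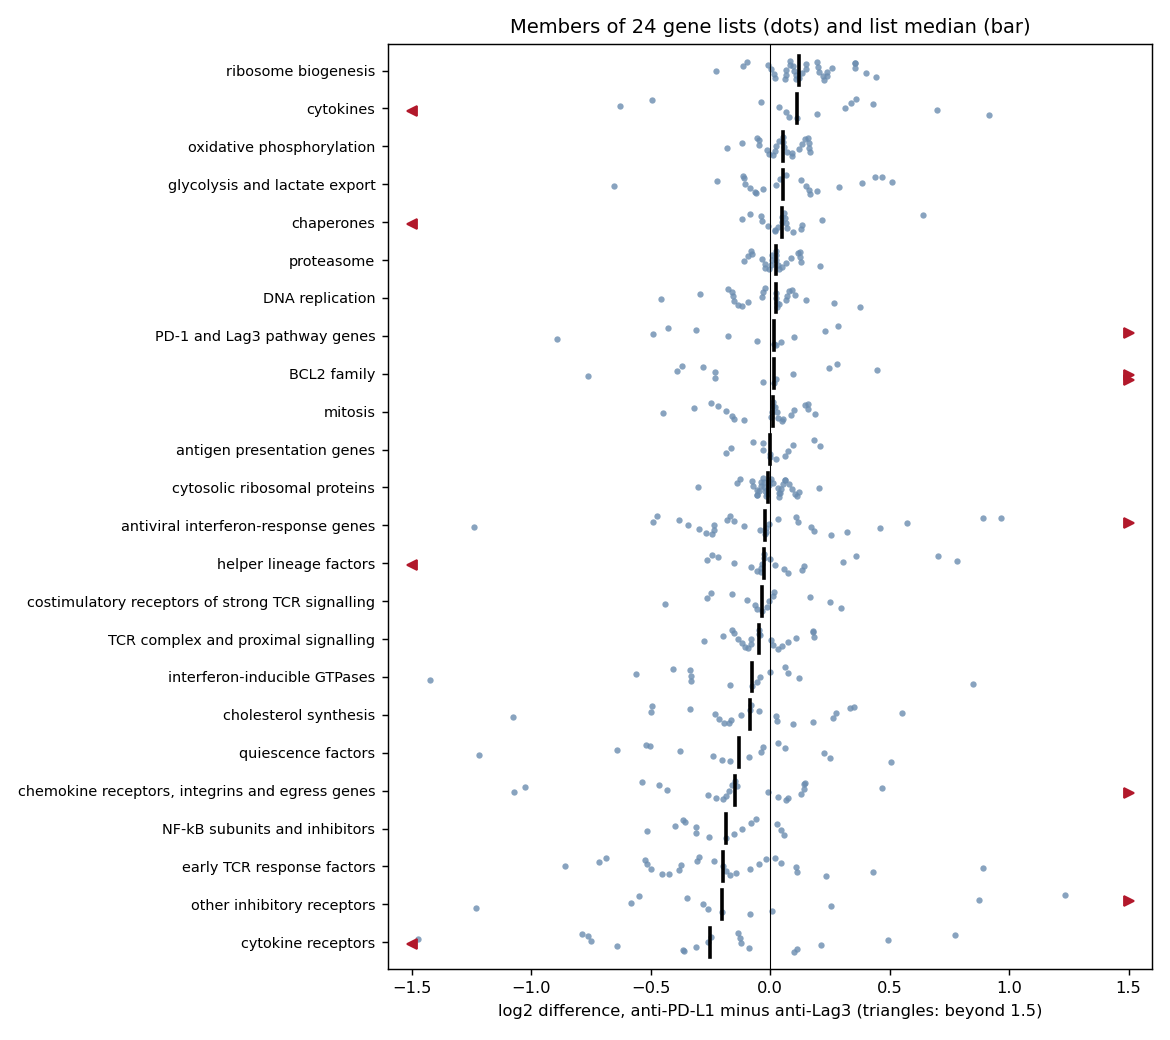
Members of 24 gene lists (y axis, ordered by median) by their log2 difference between anti-PD-L1 and anti-Lag3 (x axis). Dots are genes, red triangles are genes beyond 1.5 in either direction, and black bars are list medians, which run from -0.25 (cytokine receptors) to 0.12 (ribosome biogenesis).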

How the data were processed

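Reads from 3′ mRNA libraries of 12 sorted samples were trimmed, mapped and counted by the authors. The submitters' processing notes name cutadapt 1.18, STAR 2.6.1a, featureCounts 1.6.4, DESeq2, R 4.0 and GRCm38; the annotation release and strand setting are not given in the sources used here. The deposited table holds raw counts per gene for 56691 mouse genes and 114 spike-ins, without normalization. The deposited rlog table was not used, and the number of unused sample columns is 0. GENCODE (GRCm38) gave symbols and coordinates for 52073 genes, and 4618 keep their identifier.

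Genes with at least 30 reads in sum were tested with edgeR 4.0.16 in R 4.3.3: TMM scaling, a model of 4 group means over all 12 samples, no covariates, and quasi-likelihood tests with p-values adjusted (Benjamini-Hochberg) over 15138 genes. Standard errors are the difference divided by the square root of F, and 95% intervals use the t distribution with the fitted degrees of freedom. Reads per sample were 16449370 to 22151025 (median 19176439). A count of 0 allows up to 3 reads, which covers counting error only, and bounds use 3 reads per library. Spike-ins took 0.719% to 1.29% of counts. One mouse gave 1 library, and samples of a group were checked for duplicated libraries, of which 0 were found.

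Named genes were the 20 with the smallest p between the antibodies, the blocked receptors and ligands, genes called against isotype, 34 genes named in the study's sequencing results, and the extremes of 24 lists; a few are not reported here. Marker lists other than those given in the text (plasma, dendritic, CD8 T, NK, platelet and regulatory T cell markers) had 0 called members and overlapping sums between the antibodies. The members and lists were chosen with earlier results of these data known. The alternatives were edgeR's test against 0.2, DESeq2 1.42.0 (also against 0.2, and with s values under 0.005 from ashr 2.2.63), size factors from DESeq2, other filters, a replicate block, a fit of just the compared groups, and each sample left out. Sex as a covariate and a fit of the samples with *Xist* were added after seeing the data. Scripts were tested on simulated data.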

Additional observations from a re-analysis of the deposited data

How the results depend on the processing

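Between the antibodies the count of called genes was 0 in most alternatives, including DESeq2's size factors, filterByExpr, a mean count of 30 or more and edgeR's test against 0.2. It was 10 with DESeq2's Wald test, 8 with DESeq2's test against 0.2, 2 without a filter on low counts, 1 with only the groups compared, and 0 to 1 when each sample was left out (1 without anti-PD-L1 replicate 3, *Prdm11*). The alternatives together called 13 genes, of which 5 had a mean count under 30. ENSMUSG00000119584, the gene with the most reads, was the one called with only the groups compared (adjusted p = 0.0050, edgeR) and 1 of the 2 without a filter, against an adjusted p of 0.80 in the fit reported. The cause of these changes was not tested. Against isotype, the count of 5 for anti-PD-L1 became 56 with DESeq2's Wald test. It was 11 with DESeq2's test against 0.2, 2 with edgeR's test against 0.2, 40 without a filter and 9 with sex as a covariate. When each sample was left out, it ran from 0 to 10. The fit of only the samples with *Xist* leaves 1 isotype sample, so its count against isotype is not given. The count of 0 for anti-Lag3 became 9 and 2 with the DESeq2 tests and 14 without a filter, and ran from 0 to 1 over the samples left out. *Xist* was among the 40 and the 14 without a filter, and the Y-linked gene *Ddx3y* was among the 14. Intervals within -0.5 to 0.5 numbered 2011 with only the samples with *Xist*, and 2496 to 3113 with a sample left out.

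Deviations from the group means had correlations of -0.04 to 0.05 between samples with the same replicate number. These were under the limit of 0.1 set for pairing, so the numbers were not taken as pairs. Still, 7 of 12 samples were closest to their own number, and sex followed the number in part. Replicate 1 had Y-linked reads and replicate 3 had *Xist* in all 4 groups, and replicate 2 had mainly *Xist* except with isotype. Such low correlations over all genes cannot show that the numbers are not pairs. Cells were sorted in batches of 4, with 1 sample of each group, and no source used here ties the numbers to these batches, so a fit by batch was not made. With the replicate number as a block, 0 genes were called between the antibodies, 23 between anti-PD-L1 and isotype and 9 between anti-Lag3 and isotype, *Mt2* among them (log2 difference 1.00, adjusted p = 0.0396, edgeR). With the replicate block and only the groups compared, these counts were 2, 31 and 19. The Y-linked genes *Ddx3y* and *Eif2s3y* were among the 23, the 9 and the 19, and *Xist* was among the 31 and the 19. Comparisons with isotype were not balanced for sex, so these counts are not of antibody effects alone.

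Of the 105 named genes, 25 changed sign under some alternative without being called, 21 of them within 1 standard error of 0. List medians moved by more than their spread in 19 of 408 recomputed values, in 11 of 24 lists, and the largest move was 0.31, which is more than the size of any list median. Low counts limit the sparse genes, and 4 of the 20 genes with the smallest p had a mean count under 30.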
